A study of Oryza sativa with 2 samples.

Results

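The auxin response factor (ARF) and Aux/IAA (IAA) genes of rice were described in endosperm collected 2 days after pollination. A gene was a member if the rice gene table lists it under ARF or IAA followed by a number, and it could be read if the platform annotation ties at least 1 probe set to it alone. The table held 51 such genes. Of these, 43 were read, 17 of 23 ARF genes and 26 of 28 IAA genes, out of 17905 genes read in all. No single-gene probe set was found for ARF5, ARF6, ARF8, ARF19, ARF21, ARF25, IAA11 and IAA29, which were not analysed here. All plants were of the japonica cultivar Zhonghua11, grown in a phytotron at 28 °C during a light period of 12 h and at 22 °C during a dark period of 12 h, with no treatment or altered gene. The endosperm, the seed tissue that nourishes the embryo, was picked by hand under a dissecting scope before it had formed cells, and was kept in ethanol on ice. There was 1 group of 2 samples, each on 1 Affymetrix rice array, so no contrast between groups exists and no test was made. Whether separate plants gave the 2 samples is not stated in the labels, and the spread between the arrays may therefore be technical.

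Auxin is perceived when it joins an F-box receptor of the TIR1/AFB type to an Aux/IAA protein, which is then degraded. Aux/IAA proteins carry no DNA-binding domain. They bind ARF proteins and recruit co-repressors of the TOPLESS family, and their loss frees ARFs at the promoters of auxin response genes. ARFs bind DNA through a B3-type domain. Those with a glutamine-rich middle region activate transcription, and most others are held to repress it. Many Aux/IAA genes are themselves induced by auxin. In seeds auxin from the fertilised endosperm is known, from Arabidopsis, to drive early endosperm proliferation and seed coat growth.

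Values are signal intensities of single probe sets, in arbitrary units. They are given for array 1 and array 2 in that order, followed by the mean log2 signal ± SD over 2 arrays. Background was the 95th percentile of 64 probe sets against reporter sequences that rice should lack, 52.7 on array 1 and 37.9 on array 2, and a gene was called above background only if it was so on both arrays. Probe sets differ in how strongly they bind their targets, so the signals of different genes give no order of transcript amounts. The tissue label was checked against markers: all 6 endosperm markers read (NF-YB1, SWEET11, SWEET4, SUS3, AGPS2 and SSI) were above background, with mean log2 signals from 11.46 to 14.64. SSIIa and GBSSI, also among the 8 names of that list, matched no gene read. Of 4 markers of seed coat, nucellus and embryo, MADS29 and MADS21 were above background, MADS13 was so on 1 array and OSH1 on neither, and all 3 photosynthesis markers were above it. Their summed signal was 496.2 and 509.6 for the maternal and embryo list and 3117.3 and 3425.8 for the photosynthesis list, and 71025.1 and 69376.8 for the endosperm list, over different probe sets and lists of 4, 3 and 6 genes. The photosynthesis gene CAB2R stood at 11.49, within the range of the endosperm markers. The part of other tissue in the signals below was not tested, and fewer cells of a type and less RNA per cell cannot be told apart in such samples.

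All ARF genes but only part of the IAA genes were read above background. All 17 ARF genes were above background on both arrays, whereas 14 of 26 IAA genes (53.8%) were. Among all genes read the share was 74.1%, and among the 2473 genes with a name other than a clone or locus number it was 75.4%. Of the 12 remaining IAA genes, 11 were above background on neither array, and IAA14 was so on array 2 alone. Taken over genes, the median mean log2 signal was 9.32 for ARF genes (9.47 on array 1 and 9.19 on array 2) and 5.94 for IAA genes (5.93 and 6.13), beside 8.58 for all genes read. No test between the families was made, since genes are not replicates and the families are read through different probes.

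**Figure D1:**
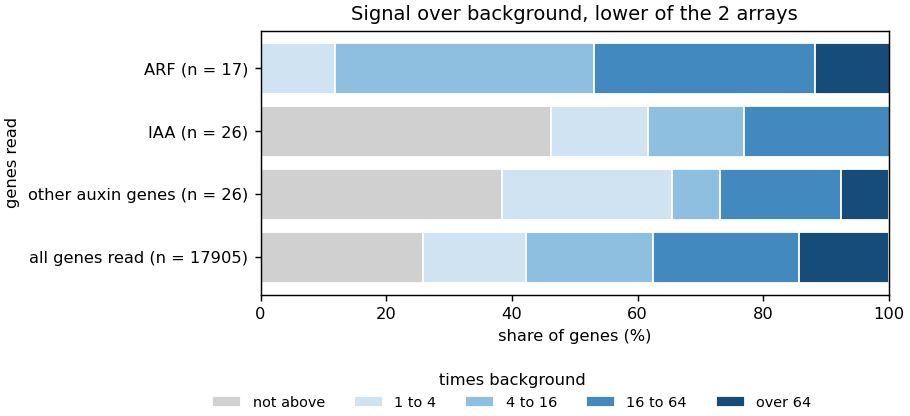
Share of genes (horizontal axis, %) by how far the lower of the 2 arrays stood over background, for ARF, IAA, other auxin and all genes read (n beside each bar). The grey part, genes not above background on both arrays, is 0 for ARF genes, 46.2% for IAA genes, 38.5% for other auxin genes and 25.9% for all genes.

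Signal over background was spread widely within each family. On the lower of the 2 arrays, 2 ARF genes stood 1 to 4 times over background, 7 stood 4 to 16 times, 6 stood 16 to 64 times and 2 over 64 times. For IAA genes the numbers were 4, 4, 6 and 0. Over all genes read these classes held 16.3%, 20.2%, 23.3% and 14.3%. The IAA genes thus fell into 12 with no call and 14 whose signals ran from 44.3 to 2721, with none in the highest class.

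ARF24 and ARF1 were the 2 members over 64 times background on both arrays. ARF24 gave signals of 9559 and 8714 (13.16 ± 0.09). It was the only member whose signal lay in the top 5% of genes on each array, a call that 4.72% of all genes met, and the thresholds were signals of 8204.4 and 8459.3. ARF24 lay close to the threshold on array 2, and the call was lost, with 0 ARF genes left, when each gene was read through its brightest probe set. ARF24 itself has 1 probe set, so under that rule its signal was unchanged and the threshold moved. In rice, ARF24 is known to act with ARF23 on the promoter of RMD, a formin gene that organises actin. ARF23 gave signals of 1256 and 1177 (10.25 ± 0.07), over 20 times background on both arrays in the probe set read. ARF1 gave signals of 5562 and 5079 (12.38 ± 0.09). Both arrays read these 3 genes alike, within 10% of each other. The gene called ARF23 here is also listed as OsARF1 in the gene table, so the 2 names are easily confused.

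The ARF genes of repressor type, all those outside the glutamine-rich class, were 14 of the 17 read. A group of 4 among them, ARF2, ARF3, ARF14 and ARF15, carries sites for tasiR-ARF, a small RNA that limits ETTIN-type ARFs, and ARF2 and ARF15 are listed as OsETTIN2 and OsETTIN1. Arabidopsis ETTIN patterns the gynoecium and leaf polarity. ARF2 gave signals of 1307 and 1410 (10.41 ± 0.08). ARF3 gave 1215 and 1309 (10.30 ± 0.08). ARF14 gave 656 and 577 (9.26 ± 0.13). In the probe sets read, these 3 stood at least 12 times over background on both arrays. ARF15 gave 205 and 156 (7.48 ± 0.28), about 4 times background on both.

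**Figure D2:**
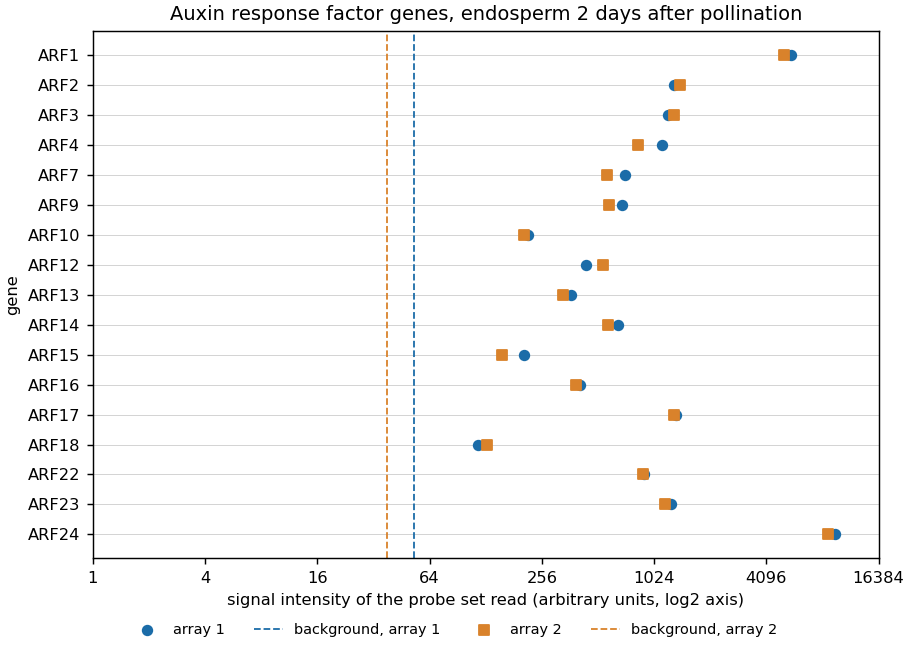
Signal of the probe set read for each of 17 ARF genes (horizontal log2 axis, arbitrary units) on array 1 (circles) and array 2 (squares), with each array's background as a dashed line. Every point lies to the right of its own background, from ARF18 at 116 and 131 to ARF24 at 9559 and 8714.

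Of the ARFs targeted by the microRNA miR160, 3 were read and all 3 were above background. ARF18 gave signals of 116 and 131 (6.95 ± 0.12), or 2.21 and 3.44 times background. ARF10 gave 216 and 205 (7.72 ± 0.05), or 4.10 and 5.41 times background. ARF22, of the same class, gave 905 and 895 (9.81 ± 0.01) and so stood 17.2 and 23.6 times over background. ARF8, the remaining gene of the class, was not read.

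The other ARFs of repressor type were all above background by at least 6-fold. ARF4, which in rice is phosphorylated by the kinase GSK5 and limits grain size, gave signals of 1133 and 839 (9.93 ± 0.31), the widest difference between the arrays among ARF genes. ARF7 gave 712 and 573 (9.32 ± 0.22). ARF9 gave 688 and 586 (9.31 ± 0.16). All 3 were dimmer on array 2. ARF13 gave 365 and 334 (8.45 ± 0.09).

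Only 3 of the 8 glutamine-rich, activator-type ARFs in the gene table could be read, and all 3 were above background. ARF17, a target of miR167, gave signals of 1349 and 1304 (10.37 ± 0.03). ARF12, of the same miR167 class and known in rice for root elongation, gave 440 and 544 (8.93 ± 0.21), brighter on array 2. ARF16, linked in rice to the response to phosphate starvation, gave 412 and 388 (8.64 ± 0.06). ARF5, ARF6, ARF19, ARF21 and ARF25, the rest of this type in the table, had no usable probe set. The values of the family therefore describe repressor types mostly, and no ratio of activators to repressors was drawn.

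Among the IAA genes, 6 stood over 16 times background on both arrays in the probe set read. They were IAA17, IAA5, IAA15, IAA10, IAA3 and IAA21. IAA17 gave signals of 2721 and 2622 (11.38 ± 0.04), through a probe set whose suffix marks probes shared by several transcripts. IAA5 gave 2371 and 2318 (11.19 ± 0.02). IAA15 gave 1729 and 1924 (10.83 ± 0.11). On both arrays these 3 were over 30 times background. IAA10, whose protein is bound and stabilised by the P2 protein of rice dwarf virus, gave 1784 and 1476 (10.66 ± 0.19). IAA3 gave 1086 and 1178 (10.14 ± 0.08). IAA21 gave 1043 and 910 (9.93 ± 0.14). No IAA gene was among the brightest 5% of genes, where the background share is 4.72%. With 26 IAA genes read, this count is near that share and is no result about the family.

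**Figure D3:**
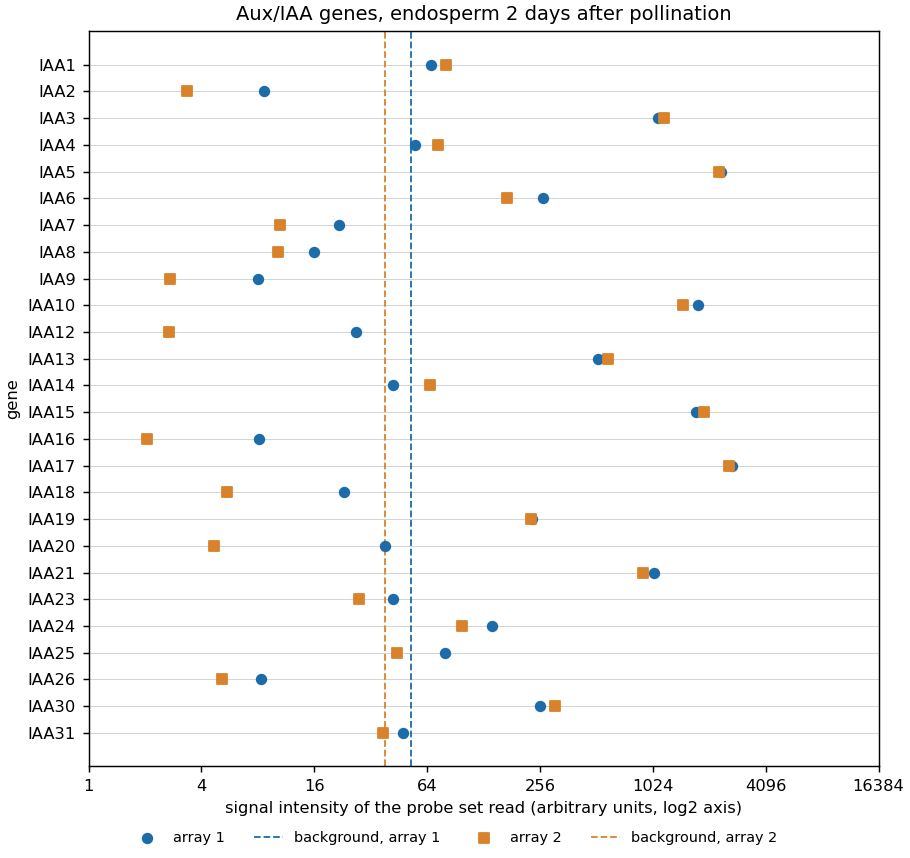
Signal of the probe set read for each of 26 IAA genes (horizontal log2 axis, arbitrary units) on array 1 (circles) and array 2 (squares), with each array's background as a dashed line. In 14 genes both points lie to the right of their background, and the 11 genes with both points to the left are lower on array 2.

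A second group of 4 IAA genes stood 4 to 16 times over background. IAA13, known in rice for lateral root initiation, gave signals of 519 and 593 (9.12 ± 0.13). IAA30 gave 255 and 308 (8.13 ± 0.19). IAA19 gave 231 and 229 (7.85 ± 0.01). For these 3 genes the arrays differed by less than 0.28 on the log2 scale. IAA6, linked in rice to drought tolerance and tillering, gave 266 and 170 (7.73 ± 0.46), clearly dimmer on array 2 though above background on both.

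The last 4 IAA genes called above background were close to it. IAA24 gave signals of 142 and 98.4 (6.89 ± 0.37). IAA1 gave 67.0 and 80.8 (6.20 ± 0.19). IAA25 gave 79.5 and 44.3 (5.89 ± 0.60), or 1.51 and 1.17 times background. IAA4 gave 55.1 and 73.2 (5.99 ± 0.29), and on array 1 it was 1.05 times background. None of these 4 exceeded the highest single reporter probe set on both arrays, at 92.3 and 98.7, and with that stricter background 10 of 26 IAA genes were called, while all 17 ARF genes still were.

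The 12 IAA genes without a call on both arrays were of different kinds. IAA14, IAA31 and IAA23 lay near background. IAA14 gave signals of 42.1 and 66.6 (5.73 ± 0.47), below background on array 1 and 1.76 times it on array 2. IAA31 gave 47.8 and 37.0 (5.39 ± 0.26), or 0.906 and 0.977 times background. IAA23, known in rice for the quiescent centre of the root, gave 42.0 and 27.7 (5.09 ± 0.43). The values of these 3 genes cannot separate a low level from none.

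The other 9 uncalled IAA genes were at or under 0.722 times background on array 1 and 0.276 on array 2. IAA20 gave signals of 38.1 and 4.67 (3.74 ± 2.14). IAA12 gave 26.6 and 2.68 (3.08 ± 2.34). IAA18 gave 23.1 and 5.46 (3.49 ± 1.47). In these 3 genes the arrays lay over 4-fold apart, so their log2 means carry little. IAA7 gave 21.6 and 10.5 (3.91 ± 0.74). IAA8 gave 15.96 and 10.2 (3.68 ± 0.45). IAA26 gave 8.31 and 5.13 (2.71 ± 0.49). All 3 were well under background on both arrays. IAA2 gave 8.62 and 3.33 (2.42 ± 0.97). IAA9 gave 7.98 and 2.72 (2.22 ± 1.10). IAA16 gave 8.11 and 2.06 (2.03 ± 1.40). These last 3 had the lowest mean signals of the members, though values this far under background have no meaningful order.

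IAA30 and IAA31 are direct neighbours in the order of the gene table, as are IAA11 and IAA12. IAA30 was above background on both arrays while IAA31 was not. IAA31 lay just under it, at 0.906 and 0.977 times background, so this pair cannot show whether neighbours share a call. IAA11 was not read, so the other neighbours could not be compared.

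Several probe sets were listed for 9 of the 43 genes, and in 6 of these their means lay over 4-fold apart. Only for ARF23 were the probe sets so far apart both above background. In the other 5 genes, IAA3, IAA4, IAA8, IAA23 and IAA31, at least 1 of the probe sets was under background, where a fold has no meaning. The unread probe set of IAA3 gave signals of 5.49 and 17.5, under background on both arrays. For ARF23 the second probe set gave 270 and 243, a 4.75-fold gap, with both above background. ARF2 gave 501 and 541 in its second probe set, and ARF4 gave 1067 and 905, so all 6 probe sets of the 3 ARF genes with more than 1 were above background. None of the 6 IAA genes with several probe sets had more than 1 above background. IAA1 and IAA4 were called through 1 of 2 and 1 of 3 probe sets, and the unread ones of IAA4 gave 13.4 and 6.71, and 48.0 and 30.3. In IAA1, IAA3 and IAA4 an unread probe set of the same suffix was under background, and the brighter was taken by rule. With the probe sets of each gene averaged, 12 IAA genes were called instead of 14. IAA8 and IAA31 were below background in both of theirs. IAA23 was below background on both arrays in the probe set read and in 1 other. The remaining probe set, whose suffix marks probes that may bind other transcripts, gave 56.5 and 59.1, just above background. A probe set annotated to both IAA10 and the homeobox gene OSH15 gave 3.17 and 1.17 and was not used.

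**Figure D4:**
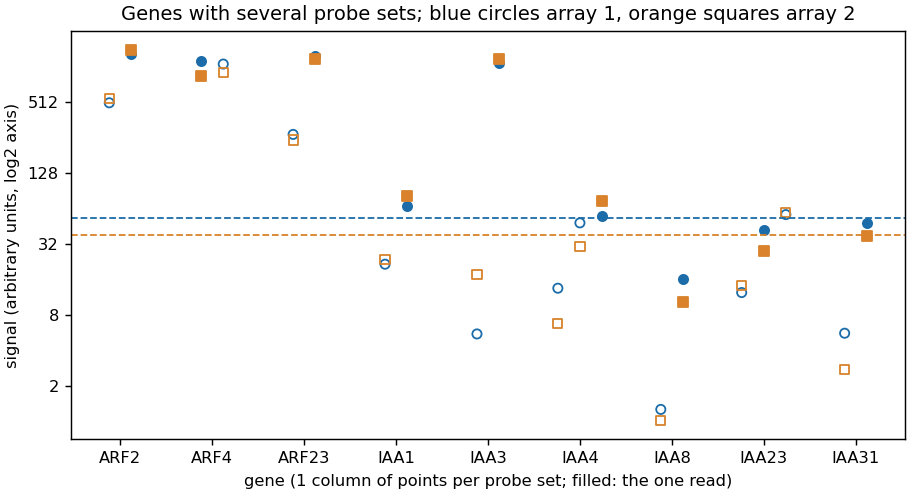
Signal (vertical log2 axis, arbitrary units) of every single-gene probe set of the 9 members with more than 1, on array 1 (circles) and array 2 (squares); filled points are the probe set read, dashed lines the background of each array. The probe sets of the 3 ARF genes all lie above background, whereas those of IAA3 lie on opposite sides of it.

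The median SD of the log2 signal over the 2 arrays was 0.09 for ARF genes and 0.17 for the 14 called IAA genes. For all genes above background it was 0.10. No ARF gene and no called IAA gene differed by over 2-fold between the arrays. Only 0.844% of all genes above background did, so this absence is no result about the members. Among ARF genes the log2 difference, array 2 minus array 1, ran from -0.43 for ARF4 to 0.30 for ARF12, with a median of -0.09. Of the 17, 13 were lower on array 2, against 52.6% of all genes above background, whose median difference was -0.01. For the 14 called IAA genes the difference ran from -0.84 for IAA25 to 0.41 for IAA4, and 8 were lower on array 2. Among the 12 uncalled IAA genes, 11 were lower on array 2 and only IAA14 was higher, beside 56.6% of all uncalled genes that were lower. The background itself, the 95th percentile of the reporters, was lower on array 2, at 37.9 against 52.7. The highest single reporter was higher there, at 98.7 against 92.3. The part of background in these differences was not tested. Over all 26 IAA genes the median difference was -0.45, and over the called ones alone it was -0.02.

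**Figure D5:**
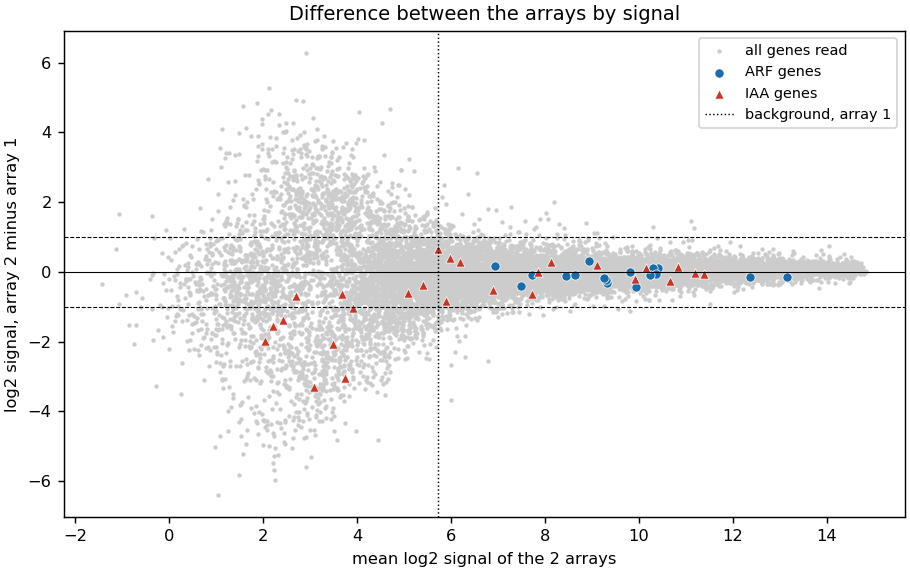
Log2 difference between the arrays (vertical axis, array 2 minus array 1) against the mean log2 signal (horizontal axis) for all genes read (grey), ARF genes (circles) and IAA genes (triangles); dashed lines mark 2-fold and the dotted line the background of array 1. All ARF genes lie between -0.43 and 0.30, and the IAA genes beyond 2-fold are all to the left of the background line.

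Other genes of the auxin pathway were read to set the families beside them. Of 26 such genes read, 16 (61.5%) were above background on both arrays, against 74.1% of all genes. Both TOPLESS-related co-repressor genes read, the partners of Aux/IAA proteins, were over 64 times background in the probe set read. ASPR2 gave signals of 5552 and 5333 (12.41 ± 0.04), through a probe set whose suffix marks probes shared by several transcripts. Its other probe set, whose suffix marks probes that may bind other transcripts, gave 1846 and 1303, or 35.0 and 34.4 times background. TPR3 gave 3563 and 3406 (11.77 ± 0.05). No receptor gene named TIR1 or AFB was matched, nor any influx carrier, so perception and uptake were not analysed here.

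Of the auxin synthesis and transport genes read, all but FIB were near or under background. FIB, a tryptophan aminotransferase gene, gave signals of 172 and 139 (7.27 ± 0.22), or 3.27 and 3.67 times background. YUCCA1, which encodes a flavin monooxygenase of the next step, gave 14.3 and 19.1 (4.05 ± 0.30), under background on both arrays. The other YUCCA1 probe set gave 25.6 and 38.1, under background on array 1 and just above it on array 2. Of 9 listed PIN efflux carrier genes, 5 were read and 1 of these was called (20.0%, beside 74.1% of all genes), the gene listed as PIN5 and PIN9, at 59.8 and 62.2 (5.93 ± 0.04). PIN3A gave 50.7 and 58.3 (5.77 ± 0.14) and was above background on array 2 alone. The genes listed as PIN1A, PIN1B and PIN1C were not read, nor was PIN5B, and other YUCCA genes were not matched.

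GH3 enzymes join hormones to amino acids, and a set of hydrolases can release auxin from such conjugates. Of 9 GH3 genes 6 (66.7%) were above background, and of 7 hydrolase genes 6 (85.7%) were, beside 74.1% of all genes, so neither count stands for a result about these genes. The GH3 list is not auxin-specific, since GH3.5 is also listed as JAR1, whose enzyme acts on jasmonate. GH3.5 gave signals of 1674 and 1499 (10.63 ± 0.11). GH3.7 gave 875 and 660 (9.57 ± 0.29) in the probe set read. Another of its probe sets gave 29.7 and 37.4, under background on both arrays. A further one, with the suffix _x_at, gave 94.9 and 79.6, or 1.80 and 2.10 times background. Of the hydrolase genes, ILL1 gave 3012 and 2545 (11.44 ± 0.17) and ILL7 gave 1092 and 1096 (10.10 ± 0.00). The only early auxin response gene of the SAUR family that was matched, SAUR39, gave 9.47 and 4.27 (2.67 ± 0.81), under background on both arrays.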

How the data were processed

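The authors deposited 1 linear signal intensity for each probe set of each array. Per the submitters' processing notes MAS5 was used, with version and settings not given in the sources used here. After trimming 2% of values at each end, the mean was 500.1 on both arrays, so each had been scaled. Median signals were 42.1 and 33.4, and the number of arrays limits the precision.

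No further normalization was applied, and log2 was taken of the intensities. Probe sets with 1 gene in the platform annotation of 2016 (22436 of 57381) were joined by identifier to the gene table of assembly ASM3414082v1, used for names and gene order only. For a gene with several probe sets, 1 was chosen by suffix (_at, _a_at, _s_at, _x_at), then highest mean. Where several family numbers are listed for a gene (8 of 51), the number that rises along the chromosomes was used. ARF4, ARF12, ARF23 and IAA13 are among these 8, so the roles given under these names rest on that choice. ARF classes come from knowledge of the family. The listed genes OsAsp1 (a protease), LAX1 and LAX2 (panicle genes) were left out of the auxin lists.

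Members and lists were chosen with earlier results of these data known. All ARF members are given, and IAA members that were uncalled, bright or split between probe sets; the remaining IAA values were added. Of the other auxin genes, all receptors and co-repressors and the 2 with the highest mean of each class are named. Planned sequence features were not analysed here. Python 3.11.15, pandas 2.3.3, NumPy 2.4.6 and matplotlib 3.10.9 were used.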

Additional observations from a re-analysis of the deposited data

Results flagged for a closer look

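An IAA23 probe set that was not used for the gene (suffix _x_at) stood above background on both arrays, at a mean log2 signal of 5.85, while the probe set read did not. Its signals were 56.5 and 59.1 against backgrounds of 52.7 and 37.9, and it is annotated to the same accession as the one read. Binding of other transcripts by its probes was not tested.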

How the results depend on the processing

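Of 51 values recomputed under the alternatives, 44 stayed within 1.5 times the count or within the spread between the arrays. The 17 ARF genes were above background under each background, probe set rule and single array tried, and the IAA count ran from 10 (highest reporter as background) to 15 (brightest probe set of each gene, or array 2 alone). ARF24 was the 1 ARF gene among the brightest 5%; with each gene read through its brightest probe set there were 0, and among the brightest 10% there were 2. The median log2 signal of IAA genes, 5.94, was 5.54 with probe sets averaged, 6.28 with an offset of 16 and 8.62 over called genes only (8.36, 8.64 and 9.77 for all genes), and 5.93 to 6.13 on single arrays. Their median difference between the arrays, -0.45, was -0.0217 over called genes only, which leaves out the dim genes. Matching by symbol alone was not run, since every member carries its family name as a synonym. No paired analysis was possible because there is 1 group. For uncalled genes, signal over background limits what can be said: they were not above it, which leaves a low level undetected.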
